A study of Homo sapiens with 8 samples.

Results

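The expression of 46 genes that repair broken, crosslinked or mismatched DNA was measured in HCT-116 cells. They cover homologous recombination, break sensing and end resection, the Fanconi anaemia pathway, structure-specific nucleases, mismatch repair and end joining. Every probe that was not a control and whose gene name was 1 of the 46 was taken, which gave 70 probes out of 50599, and the 46 names stood among 36337 names on the array. Of the 70 probes, 64 were bright enough to be tested, and they represented 45 of the 46 genes. The gene that could not be tested was LIG4, which encodes the ligase of end joining. Its probe was not well above background on any of the 8 arrays.

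These pathways work as follows. A break in both DNA strands is either religated directly, with Ku and DNA-PK holding the ends for XRCC4 and its ligase, or it is cut back to a 3' overhang by MRE11, CtIP, EXO1 and DNA2 so that BRCA2 and its partners can load the recombinase onto it and copy from the sister chromatid. Crosslinks between strands are recognised by FANCM and the Fanconi core complex, which attaches ubiquitin to FANCD2 and FANCI and so brings in nucleases. MSH6 and MSH3 find mismatches behind the replication fork, and PMS2 and EXO1 act after them. Recombination and resection operate mainly after replication has begun, CDKs phosphorylate CtIP and EXO1, and many of these genes are transcribed most in late G1 and S phase.

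HCT-116 is a human colorectal carcinoma line known to lack mismatch repair activity because of a lost gene outside the 46, so all 4 groups share that background. The WT group was the untreated parental line. WT+NU6102 was that line exposed to 20 µM of NU6102, a purine inhibitor of CDK1 and CDK2, for 24 h. CDK2 KO was an untreated, purchased CDK2-/- derivative, and R50 was a resistant line that had been kept in 50 µM NU6102 from the beginning of its selection. Each knockout or resistant line was 1 line, so a difference between lines cannot be told apart from a difference between their founder cells. R50 arrays without the inhibitor were not analysed here. R50 and WT+NU6102 therefore differed in dose and in time of exposure as well as in selection. Each group had 2 arrays, and whether the duplicates were separate cultures is not given in the sources used here, so the p-values measure the spread between duplicates, which may be technical.

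RNA was labelled with Cy3 and hybridized to Agilent arrays of 60-base probes, and a value below is the log2 of the processed signal less the 75th percentile of its array. A value of 0 is thus a signal at that percentile, and levels of different probes are not compared. Between 32376 and 36206 of the 58717 spots that were not controls were well above background on an array, none was saturated, and duplicates correlated with r from 0.9937 to 0.9958 over the tested probes. All CDK2 KO and R50 arrays were on 1 slide, and all WT and WT+NU6102 arrays on another. The effect of NU6102 and the difference of R50 from CDK2 KO were thus each measured within a slide. In the other 3 comparisons a slide effect cannot be told apart from a group difference. The CDK2 probe was lower in CDK2 KO than in WT by 0.78 (log2, SE 0.04, adjusted p = 0.000268) but was still well above background on both CDK2 KO arrays, and whether it lies within the disrupted part of the gene is not given in the sources used here. Of 6 epithelial markers, EPCAM, CDH1, KRT8, KRT18 and KRT19 were well above background on 8 of 8 arrays and VIL1 on 0. The summed linear level of the 6 was 471 to 480 in WT, 554 to 574 with NU6102, 595 to 619 in CDK2 KO and 735 to 741 in R50. The 8 markers of fibroblasts, leukocytes, endothelium and red cells summed to between 0.567 and 0.844 on every array, and their part in the results below was not tested. COL1A1, CDH5 and PTPRC were well above background on 8 of 8 arrays, CD3E on 4 (those of CDK2 KO and R50), PECAM1 on 1, and COL1A2, COL3A1 and HBB on none. COL1A1 was 1.22 higher (log2) in CDK2 KO than in WT (adjusted p = 0.0003418), 0.66 higher in R50 than in WT (adjusted p = 0.004358) and lower with NU6102 by -0.75 (adjusted p = 0.0009112).

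The following 3 probes are printed 5' to 3' as designed, with positions on hg19 from the array annotation, all on the plus strand. They are shown because MSH6 and EXO1 were the genes that passed 2-fold by their brightest probe, and XRCC4 was the 1 gene with its highest mean in R50. The MSH6 probe lies at chr2:48033919-48033978 and the EXO1 probe at chr1:242048717-242048776. The XRCC4 probe covers chr5:82500709-82554376 with only 60 bases, so it crosses a splice junction.
MSH6: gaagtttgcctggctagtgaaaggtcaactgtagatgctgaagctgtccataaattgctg
EXO1: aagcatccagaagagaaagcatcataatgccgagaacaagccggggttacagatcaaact
XRCC4: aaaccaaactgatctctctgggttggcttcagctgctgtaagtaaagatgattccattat
None of the 3 shares a run of 20 bases with a probe of another gene on the array.

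Across the set, with all 8 arrays fitted together, a larger share of repair genes than of protein-coding genes was called lower in R50. The share called higher with NU6102 was close to that of protein-coding genes. A gene was called changed when the Benjamini-Hochberg adjusted p of limma, over 28677 probes, was under 0.05, and each gene was read by its brightest tested probe. After 24 h of NU6102, 15 of 45 genes were higher and 6 lower than in WT, where 30.3% of 14216 protein-coding genes were higher and 24.2% lower. In CDK2 KO, 12 were higher and 9 lower than in WT, beside 20.1% and 17% of protein-coding genes. In R50, 1 was higher and 14 lower than in WT, beside 12.6% and 16.1%. Against CDK2 KO, R50 had 5 genes higher and 18 lower, beside 17.4% and 24.9%. Against WT+NU6102, R50 had 5 higher and 28 lower, beside 26.4% and 35.2%. The count lower in R50 than in WT was 5 without WT replicate 1 (11.1%, beside 5.29% of protein-coding genes in the same fit), 6 without WT replicate 2 (13.3% beside 5.92%), 6 without R50 replicate 1 (13.3% beside 6.57%), 8 without R50 replicate 2 (17.8% beside 8.23%) and 9 without either WT+NU6102 array (20% beside 12.2%). The count higher in CDK2 KO than in WT was 4 without WT replicate 1 (8.89% beside 12.5%), 4 without CDK2 KO replicate 2 (8.89% beside 12.4%), 5 without CDK2 KO replicate 1 (11.1% beside 12.3%) and 6 without WT replicate 2 (13.3% beside 13.4%), so there the share of repair genes was not above that of protein-coding genes. In the first 3 of these fits, the share of repair genes lower in CDK2 KO was also below or about equal to that of protein-coding genes. These comparisons share arrays and are not separate evidence of one direction. With no filter on dim probes, the count lower in R50 than in WT was 5, and with the methods' t-test it was 0. That t-test gave 3 lower against CDK2 KO and 14 against WT+NU6102. The shares of protein-coding genes under these settings are not given here.

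**Figure D1:**
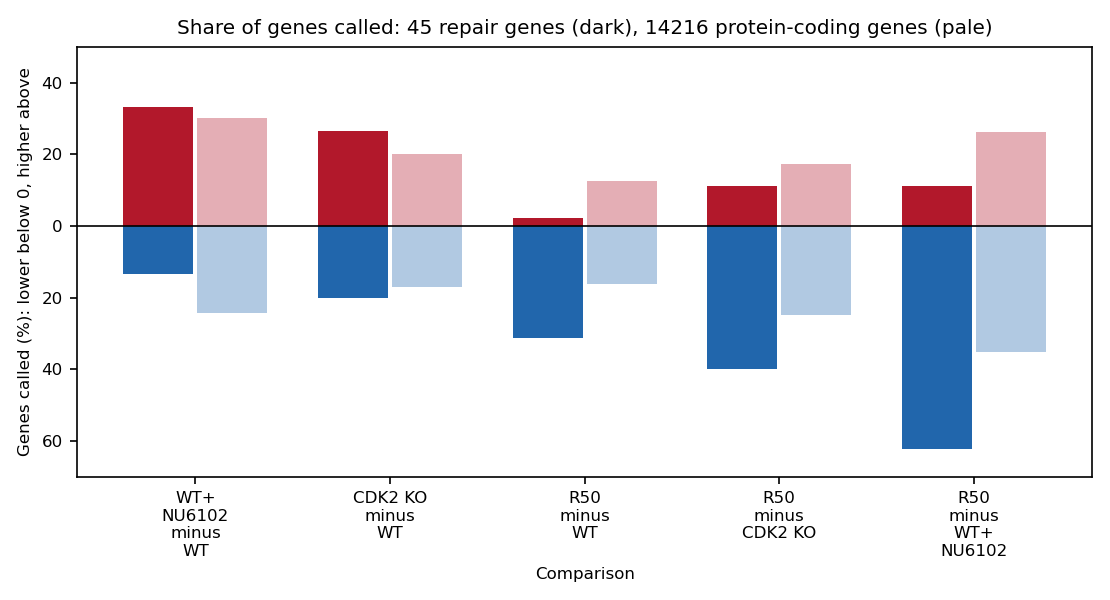
Share of genes called higher (above 0) or lower (below 0) at an adjusted p under 0.05 in each comparison, as percent of the genes tested. Dark bars are the 45 repair genes and pale bars the 14216 protein-coding genes; in R50 against WT the repair genes had 2.22% higher and 31.1% lower, beside 12.6% and 16.1%.

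The changes were small. The median log2 difference of the 45 genes was 0.10 with NU6102 (0.05 for protein-coding genes), 0.02 in CDK2 KO (0.02), -0.15 in R50 against WT (-0.04), -0.19 in R50 against CDK2 KO (-0.06) and -0.35 in R50 against WT+NU6102 (-0.07). At a change of 2-fold or more, the calls by the brightest probe were MSH6 higher in CDK2 KO than in WT (2.86% of protein-coding genes), MSH6 lower in R50 than in CDK2 KO (2.56%) and EXO1 lower in R50 than in WT+NU6102 (3.43%). In the remaining directions no repair gene passed 2-fold, where the limma counts at an adjusted p under 0.05 are those given above. The share of protein-coding genes there was 1.17% higher and 5.56% lower with NU6102, 2.34% lower in CDK2 KO, 1.89% higher and 0.865% lower in R50 against WT, 3.01% higher in R50 against CDK2 KO, and 8.48% higher in R50 against WT+NU6102. R50 had the lowest mean of the 4 groups for 22 genes and the highest for 1, XRCC4. Among protein-coding genes it was lowest for 31.9% and highest for 18.9%. WT+NU6102 had the highest mean for 20 repair genes, beside 39.4% of protein-coding genes, and CDK2 KO for 18, beside 27.9%. In a moderated F-test over the 4 groups, 13 genes passed an adjusted p of 0.001 (28.6% of protein-coding genes): EXO1, FANCA, FANCF, FANCL, MSH6, PMS2, RAD51C, RAD54B, RAD54L, RBBP8, SLX4, XRCC4 and XRCC5. When any 1 array was left out, 1 to 3 of the 45 genes passed that test: 2 without either WT or either CDK2 KO array, 3 without either R50 array and 1 without either WT+NU6102 array, beside 4.51% to 8.11% of protein-coding genes.

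**Figure D2:**
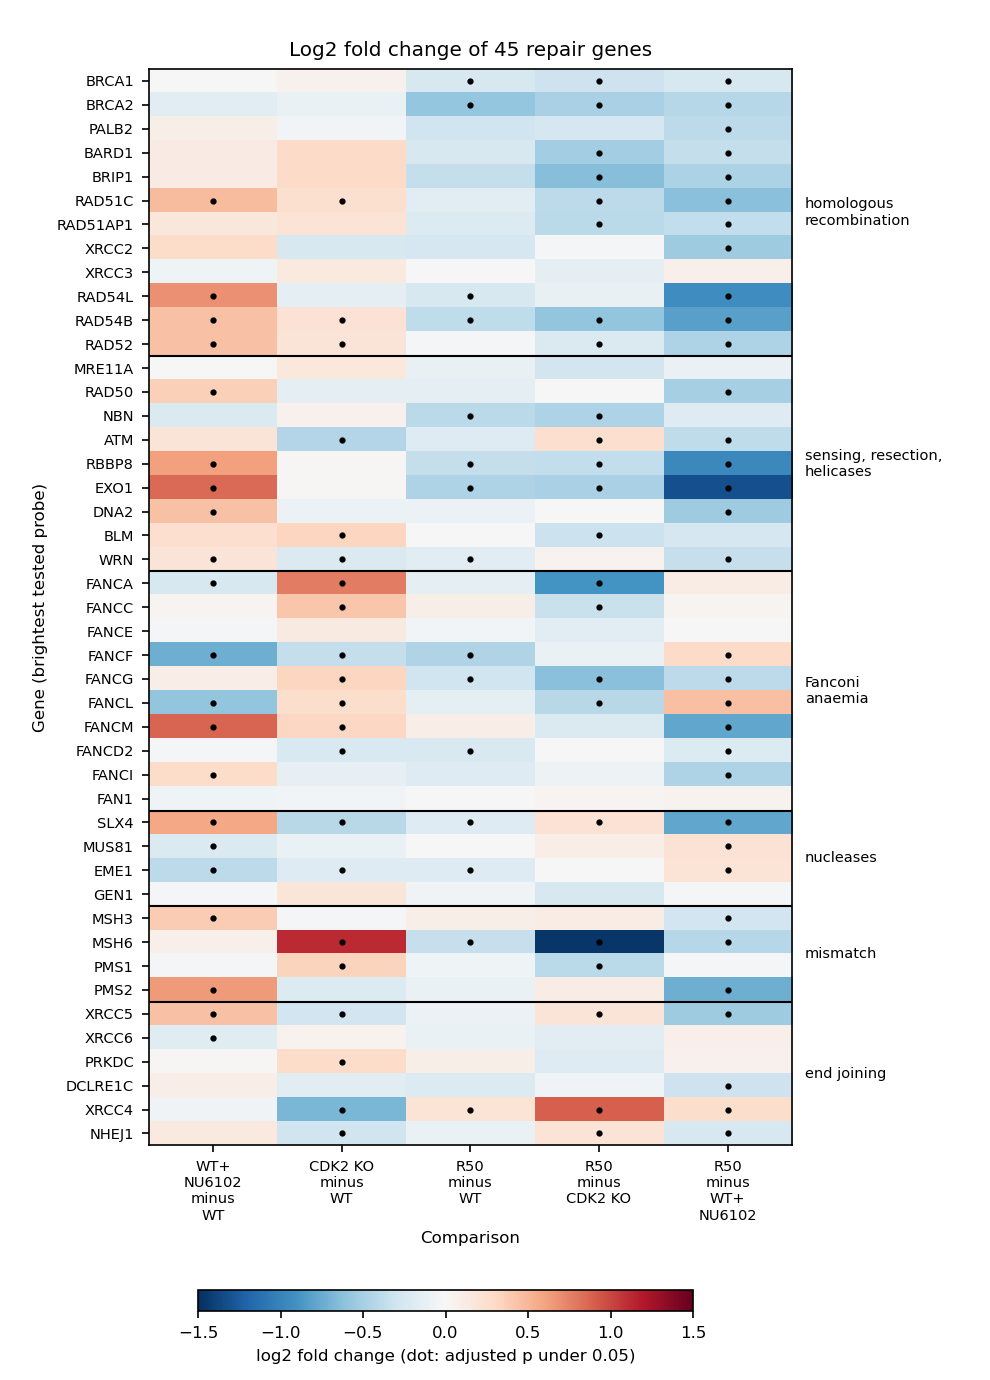
Log2 fold change of the 45 tested repair genes (rows, by role) in 5 comparisons (columns), red for higher and blue for lower in the group named first; a dot marks an adjusted p under 0.05. The R50 columns are mostly blue for homologous recombination, MSH6 is the darkest red in CDK2 KO against WT at 1.11, and XRCC4 runs the other way from most genes in R50 against CDK2 KO at 0.89.

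Among the 12 genes of homologous recombination, none was called higher in any of the 3 comparisons of R50. The counts lower in R50 were 4 of 12 against WT, 8 of 12 against CDK2 KO and 11 of 12 against WT+NU6102. Of protein-coding genes, 16.1%, 24.9% and 35.2% were lower in these comparisons, and 12.6%, 17.4% and 26.4% higher. The medians of the 12 were -0.24, -0.35 and -0.45 on the log2 scale. NU6102 raised 4 of the 12 (RAD54L, RAD51C, RAD52 and RAD54B) and lowered none. CDK2 KO had 3 higher than WT (RAD51C, RAD54B and RAD52) and none lower. Of protein-coding genes, 30.3% were higher and 24.2% lower with NU6102, and 20.1% and 17% in CDK2 KO. RAD54L is a motor protein that helps the recombinase invade a duplex. Its values were 2.36 and 2.39 in WT, 3.03 and 3.09 with NU6102, 2.29 and 2.19 in CDK2 KO, and 2.14 and 2.12 in R50. Both treated arrays stood above all others, and the R50 arrays were the lowest. RAD54L rose by 0.68 with NU6102 (SE 0.06, adjusted p = 0.000507) and was lower in R50 than in WT+NU6102 by 0.93, a difference of -0.93 (adjusted p = 0.000115). Its call against WT in R50, -0.24, was lost in 6 of 8 fits that left out 1 array, with values from -0.26 to -0.23.

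RAD54B, a related motor protein, measured 1.07 and 1.15 in WT, 1.56 and 1.53 with NU6102, 1.35 and 1.29 in CDK2 KO, and 0.75 and 0.71 in R50, so the 4 groups did not overlap and R50 was lowest. Its log2 difference was 0.44 with NU6102 (SE 0.05, adjusted p = 0.00162), -0.38 in R50 against WT (adjusted p = 0.00782), -0.59 against CDK2 KO (adjusted p = 0.000931) and -0.81 against WT+NU6102 (adjusted p = 0.000133). The rise in CDK2 KO, 0.21, was lost in 6 of 8 fits without 1 array (0.18 to 0.25). The second RAD54B probe was called in none of the comparisons, with values from -0.34 to -0.02. RAD51C, a recombinase paralogue, read 2.76 and 2.80 in WT, 3.21 and 3.30 with NU6102, 3.035 and 2.995 in CDK2 KO, and 2.60 and 2.65 in R50. It was highest with NU6102 and lowest in R50, without overlap. Its call in CDK2 KO against WT (0.24) was lost in 4 of 8 fits without 1 array (0.21 to 0.26). RAD52, which anneals complementary strands, was 0.45 higher with NU6102 (adjusted p = 0.00107), and its calls in CDK2 KO against WT (0.20) and in R50 against CDK2 KO (-0.22) were each lost in 4 of 8 such fits (0.18 to 0.22 and -0.24 to -0.20). It and did not differ detectably between R50 and WT (-0.02, SE 0.05).

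BRCA2, which loads the recombinase, was dim but well above background on 8 of 8 arrays. It measured -3.55 and -3.69 in WT, -3.66 and -3.89 with NU6102, -3.65 and -3.78 in CDK2 KO, and -4.18 and -4.22 in R50. Both R50 arrays lay below the other 6, which overlapped. The difference from WT was -0.58 (SE 0.10, adjusted p = 0.0141). With normexp background correction the difference was -0.178. The call was lost without WT replicate 1 (-0.52), without R50 replicate 1 (-0.60) and without R50 replicate 2 (-0.56). BRIP1, the helicase that binds BRCA1, measured -1.69 and -1.83 in WT, -1.66 and -1.62 with NU6102, -1.36 and -1.59 in CDK2 KO, and -2.06 and -2.18 in R50. R50 was again lowest, and was below CDK2 KO by 0.64 on the log2 scale (-0.64, SE 0.10, adjusted p = 0.00597). Its call against WT+NU6102 (-0.48) was lost without R50 replicate 2 (-0.42). BRCA1, a ubiquitin ligase that directs breaks to recombination, was 0.79 and 0.79 in WT, 0.81 and 0.77 with NU6102, 0.89 and 0.82 in CDK2 KO, and 0.53 and 0.57 in R50. It was lower in R50 than in each of the other groups, by -0.24 against WT (adjusted p = 0.0236), -0.31 against CDK2 KO (adjusted p = 0.00645) and -0.24 against WT+NU6102 (adjusted p = 0.00874), and it did not pass the test with NU6102 (0.00) or in CDK2 KO (0.07). The call against WT was lost in 4 of the 8 fits without 1 array (-0.26 to -0.21).

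BARD1, the partner of BRCA1, and RAD51AP1, which stimulates strand pairing, were called lower in R50 against CDK2 KO (-0.52 and -0.40) and against WT+NU6102 (-0.36 and -0.37). The second BARD1 call was lost in 7 of 8 fits without 1 array (-0.50 to -0.21) and the first without CDK2 KO replicate 2 (-0.48). PALB2, the bridge from BRCA1 to BRCA2, and the recombinase paralogue XRCC2 were called lower in R50 against WT+NU6102 alone (-0.39 and -0.53), that of PALB2 lost in 2 of 8 fits (-0.48 to -0.29). The last gene of the group, XRCC3, another paralogue, depended on the probe. Its brightest probe, with values from 5.65 to 5.92 on the 8 arrays, was called in none of the 5 comparisons. That probe is annotated only to an Ensembl transcript and begins with ccagcctgggcgacagag, letters typical of Alu repeats, although no run of 20 bases recurs in a probe of another gene. The probe for the RefSeq mRNA gave 2.54 and 2.66 in WT, 3.25 and 3.41 with NU6102, 2.93 and 3.04 in CDK2 KO, and 2.38 and 2.44 in R50. Read by it, XRCC3 rose by 0.73 with NU6102 (SE 0.08, adjusted p = 0.0012), was 0.39 higher in CDK2 KO (adjusted p = 0.0174), and was lower in R50 than in CDK2 KO by -0.58 (adjusted p = 0.00411).

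Break sensing, resection and helicase genes split. NU6102 raised 5 of 9 (EXO1, RBBP8, DNA2, RAD50 and WRN) and lowered none, with a median of 0.25. R50 was called lower than WT for 4 of 9 (EXO1, NBN, RBBP8 and WRN) and lower than WT+NU6102 for 6 of 9. Of protein-coding genes, 30.3% were higher and 24.2% lower with NU6102. R50 was lower than WT for 16.1% of them and lower than WT+NU6102 for 35.2%. EXO1, the exonuclease of long resection that also acts in mismatch repair, measured 0.86 and 0.90 in WT, 1.69 and 1.76 with NU6102, 0.88 and 0.92 in CDK2 KO, and 0.38 and 0.44 in R50. WT and CDK2 KO overlapped, the treated arrays were highest and the R50 arrays lowest. EXO1 rose by 0.85 with NU6102 (1.80-fold, SE 0.05, adjusted p = 0.000252), was lower in R50 than in WT by -0.46 (adjusted p = 0.0044), and was 2.49-fold lower in R50 than in WT+NU6102 (adjusted p = 4.13e-05). Its probe is printed 10 times per array, and the SD over those spots was between 0.021 and 0.06 on each array. RBBP8, which encodes the CDK substrate CtIP, read 2.66 and 2.65 in WT, 3.27 and 3.27 with NU6102, 2.69 and 2.67 in CDK2 KO, and 2.27 and 2.34 in R50. The treated arrays were again highest and the R50 arrays lowest. RBBP8 rose by 0.61 with NU6102 (SE 0.05, adjusted p = 0.000425) and differed by -0.35 in R50 against WT (adjusted p = 0.00719) and by -0.97 against WT+NU6102 (adjusted p = 6.55e-05).

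In the MRN complex, which senses breaks, the 3 subunits did not move alike. RAD50 rose by 0.36 with NU6102 (SE 0.05, adjusted p = 0.00243). NBN measured -0.15 and -0.25 in WT, -0.40 and -0.43 with NU6102, -0.05 and -0.22 in CDK2 KO, and -0.52 and -0.68 in R50. It was lower in R50 than in WT by -0.40 (SE 0.09, adjusted p = 0.026), a call lost without WT replicate 1 (-0.36), WT replicate 2 (-0.45) or R50 replicate 2 (-0.32), and lower than in CDK2 KO by -0.47 (adjusted p = 0.0102), a call lost without CDK2 KO replicate 1 (-0.39). MRE11A, the nuclease subunit, was -2.19 on 1 WT+NU6102 array and -1.13 on the other, a wider gap than in any other group, and no comparison passed the test (SE 0.33). Without WT+NU6102 replicate 1 its difference from WT was 0.52 and without replicate 2 it was -0.54, with adjusted p = 0.01832 and 0.01777 in limma, so no direction can be given.

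ATM, the kinase that signals breaks, measured -1.32 and -1.22 in WT, -1.10 and -1.05 with NU6102, -1.70 and -1.71 in CDK2 KO, and -1.51 and -1.40 in R50 by its brightest probe. CDK2 KO was lowest and WT+NU6102 highest, without overlap. The difference was -0.44 in CDK2 KO against WT (SE 0.06, adjusted p = 0.00522). In R50 it was 0.25 above CDK2 KO (adjusted p = 0.0296), a call lost in 5 of 8 fits without 1 array (0.19 to 0.30), and -0.38 against WT+NU6102 (adjusted p = 0.00399). A second probe for the same mRNA was called the opposite way in R50 against WT+NU6102 (0.29, adjusted p = 0.041), so that direction depends on the probe. In CDK2 KO against WT that probe gave 0.10 and did not pass the test. DNA2, the nuclease and helicase that resects beside EXO1, was 0.44 higher with NU6102 (adjusted p = 0.0117; lost in 2 of 8 fits, 0.40 to 0.48) and lower in R50 than in WT+NU6102 by -0.53. The helicase WRN was 0.19 higher with NU6102, -0.21 in CDK2 KO and -0.16 in R50 against WT, calls lost in 3, 4 and 8 of 8 fits without 1 array (0.18 to 0.21, -0.21 to -0.21 and -0.16 to -0.15). BLM, the helicase that dissolves crossed strands, was 0.33 higher in CDK2 KO than in WT (adjusted p = 0.0356) and -0.33 in R50 against CDK2 KO (adjusted p = 0.0339), calls lost in 5 and 6 of 8 such fits (0.24 to 0.42 and -0.40 to -0.25).

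**Figure D3:**
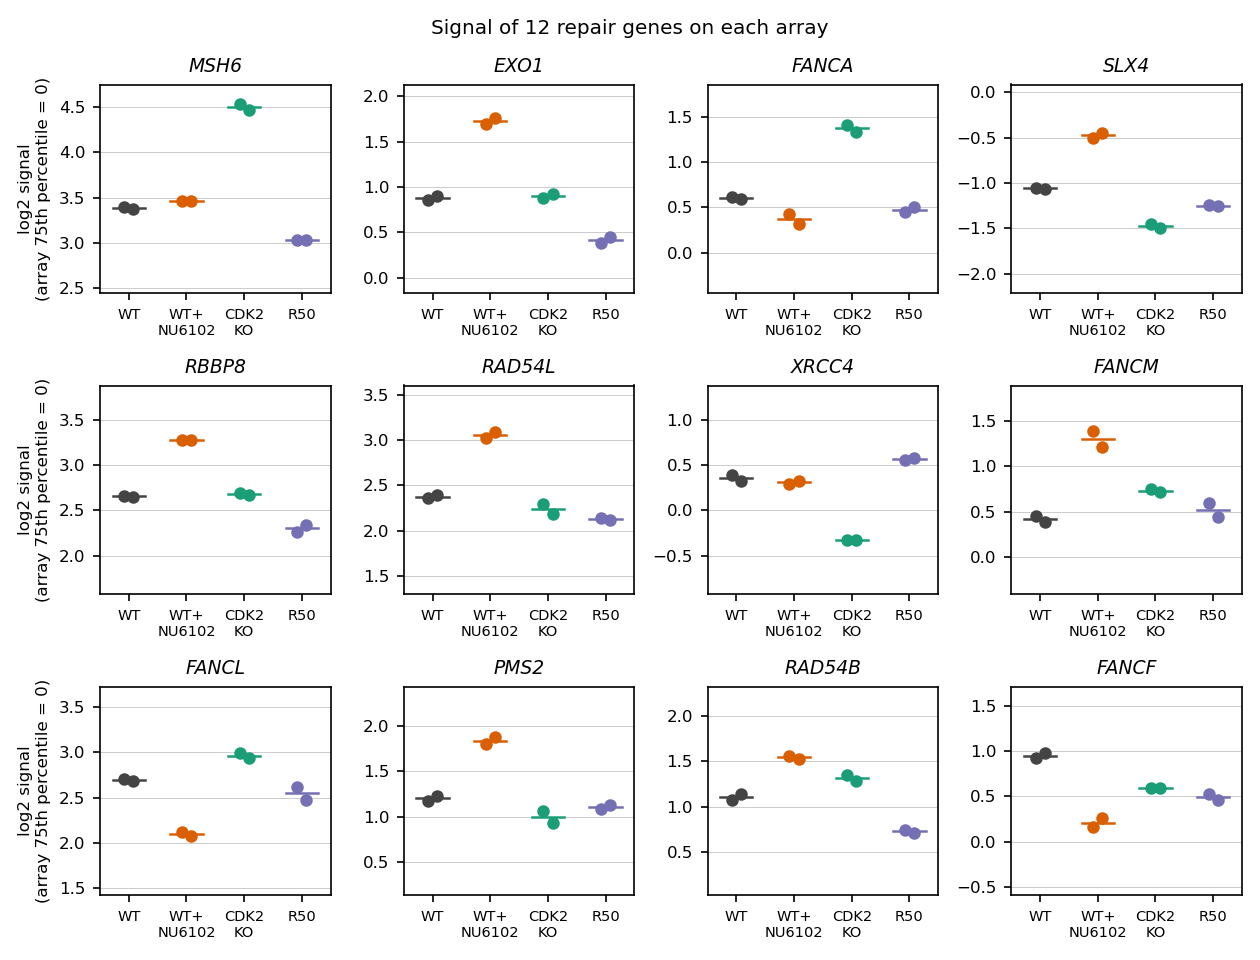
Log2 signal less the 75th percentile of each array (vertical axes, each spanning the same 2.3 units) for 12 of the repair genes described in the text; points are the 2 arrays of a group and bars their mean. CDK2 KO stands apart for MSH6, FANCA and XRCC4, and WT+NU6102 is highest for EXO1, RBBP8, RAD54L, FANCM, PMS2, RAD54B and SLX4 and lowest for FANCL and FANCF.

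The Fanconi genes gave the most mixed picture. Under NU6102, 2 of 10 were higher and 3 lower, beside 30.3% and 24.2% of protein-coding genes. In CDK2 KO against WT, 5 were higher and 2 lower, beside 20.1% and 17%. In R50 against WT, none was higher and 3 were lower, beside 12.6% and 16.1%. FANCM, the translocase that recognises the crosslink, measured 0.45 and 0.39 in WT, 1.39 and 1.21 with NU6102, 0.75 and 0.71 in CDK2 KO, and 0.59 and 0.44 in R50. The treated arrays stood above the others. It was the gene that rose most with NU6102, by 0.88 (1.84-fold, SE 0.08, adjusted p = 0.000778), and R50 was lower than WT+NU6102 by -0.78 (adjusted p = 0.000715). In CDK2 KO it was 0.31 higher than in WT, lost when either WT or either CDK2 KO array was left out (0.28 to 0.34). In the core complex, FANCF and FANCL moved the other way. FANCF, its adaptor, was 0.92 and 0.97 in WT, 0.16 and 0.26 with NU6102, 0.59 and 0.59 in CDK2 KO, and 0.53 and 0.47 in R50. WT was highest and WT+NU6102 lowest.

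FANCF fell by 0.74 with NU6102 (SE 0.06, adjusted p = 0.000404), was lower in CDK2 KO than in WT by -0.36 (adjusted p = 0.00702) and in R50 by -0.45 (adjusted p = 0.00557), and its second probe was called lower with NU6102 too (-0.26) but not in CDK2 KO (0.14) or R50 (-0.10) against WT. FANCL, the ubiquitin ligase of the complex, read 2.70 and 2.69 in WT, 2.12 and 2.08 with NU6102, 2.99 and 2.93 in CDK2 KO, and 2.62 and 2.47 in R50. The treated arrays were lowest. It fell by 0.60 with NU6102 (SE 0.06, adjusted p = 0.00113), a second probe giving -0.61 (adjusted p = 0.00105), and R50 exceeded WT+NU6102 by 0.45 (adjusted p = 0.00226) and was below CDK2 KO by 0.42 (-0.42, adjusted p = 0.00581). The rise of FANCL in CDK2 KO, 0.27, was lost in 4 of 8 fits without 1 array (0.24 to 0.30). FANCG, another core subunit, measured 3.66 and 3.69 in WT, 3.73 and 3.81 with NU6102, 3.96 and 4.03 in CDK2 KO, and 3.33 and 3.42 in R50. CDK2 KO was highest and R50 lowest, and they differed by -0.62 (R50 against CDK2 KO, SE 0.06, adjusted p = 0.00114). R50 against WT, -0.30, was lost in 3 of 8 fits without 1 array (-0.35 to -0.26), and CDK2 KO against WT, 0.32, in 2 of 8 (0.29 to 0.36). FANCE, which links the core to FANCD2, was called in no comparison (-0.17 to 0.14), and neither was FAN1, the nuclease that FANCD2 recruits (-0.06 to 0.06). FANCD2 itself was lower than WT in CDK2 KO (-0.23) and in R50 (-0.23), calls lost in 4 and 7 of 8 fits without 1 array (-0.24 to -0.23 and -0.28 to -0.18), while its partner FANCI rose by 0.28 with NU6102 (adjusted p = 0.00934), a call lost without WT replicate 1 (0.24).

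FANCA and FANCC gave opposite calls by probe. The brightest FANCA probe (chr16:89804013-89804072, hg19, minus strand, full-length mRNA) measured 0.62 and 0.59 in WT, 0.42 and 0.31 with NU6102, 1.41 and 1.33 in CDK2 KO, and 0.44 and 0.51 in R50. CDK2 KO was highest, by 0.77 over WT (SE 0.06, adjusted p = 0.000787), and R50 was below CDK2 KO by 0.89 (-0.89, adjusted p = 0.00042). With NU6102 the probe was lower by -0.24 (adjusted p = 0.0264), a call lost without WT replicate 1 (-0.22), WT replicate 2 (-0.25) or WT+NU6102 replicate 2 (-0.18). The other FANCA probes, annotated to a short transcript (chr16:89864767-89864823 and chr16:89877116-89877175), were higher with NU6102 by 0.46 (adjusted p = 0.00155) and 0.36 (adjusted p = 0.00615), and lower in R50 than in WT by -0.65 and -0.27. In CDK2 KO against WT they gave 0.04, which did not pass the test, and 0.27 (adjusted p = 0.0247). In R50 against WT+NU6102 they were lower by -1.11 (2.16-fold, adjusted p = 6.574e-05) and -0.63 (adjusted p = 0.000534), where the brightest probe gave 0.11 and did not pass. All 3 probes were lower in R50 than in CDK2 KO, by -0.89, -0.69 and -0.54.

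FANCC, a core subunit, read 0.66 and 0.67 in WT, 0.67 and 0.73 with NU6102, 1.08 and 1.08 in CDK2 KO, and 0.75 and 0.75 in R50 by its brightest probe. It was 0.42 higher in CDK2 KO than in WT (SE 0.05, adjusted p = 0.00191) and lower in R50 than in CDK2 KO by -0.33 (adjusted p = 0.00359). The second FANCC probe, for another RefSeq transcript (chr9:97872871-97872930), ran the other way, at -0.85 in CDK2 KO against WT (adjusted p = 0.00147) and 0.38 in R50 against CDK2 KO (adjusted p = 0.0184).

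**Figure D4:**
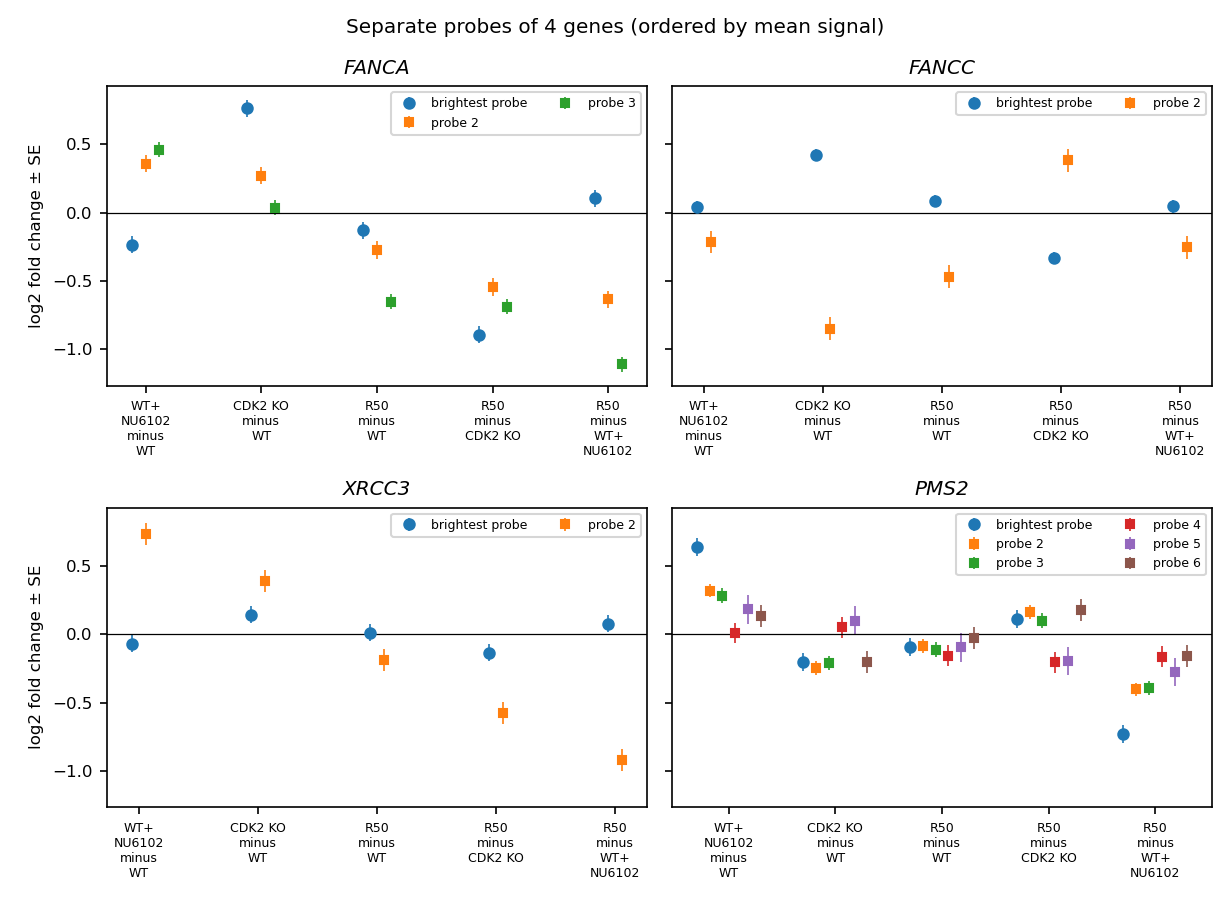
Log2 fold change with its standard error (vertical axis) for each tested probe of FANCA, FANCC, XRCC3 and PMS2 in 5 comparisons (horizontal axis); circles are the brightest probe of the gene and squares the others, in order of mean signal. In CDK2 KO against WT the FANCC probes lie at 0.42 and -0.85, and with NU6102 the XRCC3 probes lie at -0.07 and 0.73.

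Of the structure-specific nucleases, SLX4, the scaffold that holds the others, differed from the rest. It measured -1.06 and -1.06 in WT, -0.50 and -0.45 with NU6102, -1.45 and -1.49 in CDK2 KO, and -1.25 and -1.26 in R50. The 4 groups did not overlap, with NU6102 highest and CDK2 KO lowest. SLX4 rose by 0.58 with NU6102 (SE 0.05, adjusted p = 0.000434), was -0.41 in CDK2 KO (adjusted p = 0.00219), and was -0.78 in R50 against WT+NU6102 (adjusted p = 0.000102). The smaller differences, -0.19 in R50 against WT and 0.22 in R50 against CDK2 KO, were lost in 8 and 4 of 8 fits without 1 array (-0.20 to -0.19 and 0.20 to 0.24).

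MUS81 and EME1 form 1 nuclease, and both fell with NU6102. MUS81 was 1.24 and 1.28 in WT, 1.08 and 1.01 with NU6102, 1.16 and 1.16 in CDK2 KO, and 1.23 and 1.29 in R50, so the treated arrays were lowest (-0.21, SE 0.05, adjusted p = 0.0189; lost in 3 of 8 fits without 1 array, -0.25 to -0.18). EME1 was 0.44 and 0.49 in WT, 0.05 and 0.10 with NU6102, 0.27 and 0.27 in CDK2 KO, and 0.24 and 0.31 in R50. WT was highest, and NU6102 lowered it by 0.39 (-0.39, SE 0.05, adjusted p = 0.0021). Its lower level in R50 than in WT (-0.19) was lost in 8 of 8 fits without 1 array (-0.23 to -0.15) and that in CDK2 KO (-0.20) in 6 of 8 (-0.22 to -0.17). In R50 against WT+NU6102, MUS81 was 0.21 higher (adjusted p = 0.0163) and EME1 0.20 higher (adjusted p = 0.0193), lost in 2 and 3 of 8 such fits (0.18 to 0.25 and 0.17 to 0.24). GEN1, a resolvase of crossed strands, was called in no comparison (-0.24 to 0.19).

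In mismatch repair, MSH6, the partner that recognises base mismatches, had the widest range of all 45 genes. Its values were 3.40 and 3.38 in WT, 3.47 and 3.47 with NU6102, 4.54 and 4.47 in CDK2 KO, and 3.04 and 3.04 in R50. Both CDK2 KO arrays stood above all others, and both R50 arrays were the lowest. MSH6 was 2.16-fold higher in CDK2 KO than in WT (log2 1.11, SE 0.05, adjusted p = 0.000111) and 2.76-fold lower in R50 than in CDK2 KO (log2 -1.46, adjusted p = 4.85e-05), the second within a slide. It was lower in R50 than in WT by -0.35 (adjusted p = 0.00695) and did not pass the test with NU6102 (0.08, SE 0.05). The calls in CDK2 KO against WT and in R50 against CDK2 KO held in 8 of 8 fits without 1 array (1.08 to 1.15 and -1.498 to -1.428), and the SD over its 10 spots was between 0.046 and 0.065 on each array. MSH3, its counterpart for small loops, was dim and rose by 0.38 with NU6102 (SE 0.08, adjusted p = 0.0148), a call lost in 2 of 8 fits without 1 array (0.31 to 0.45).

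PMS1, a homologue of the mismatch endonuclease, measured 0.97 and 0.89 in WT, 0.90 and 0.89 with NU6102, 1.30 and 1.23 in CDK2 KO, and 0.85 and 0.89 in R50. CDK2 KO was highest, by 0.34 over WT (SE 0.05, adjusted p = 0.0072), and R50 was below CDK2 KO by 0.40 (-0.40, adjusted p = 0.00357). Its second probe gave -0.24 and -0.23 in these comparisons and passed the test in neither, but was called lower in R50 than in WT (-0.47, adjusted p = 0.0161). PMS2, the endonuclease subunit, read 1.17 and 1.23 in WT, 1.80 and 1.88 with NU6102, 1.06 and 0.93 in CDK2 KO, and 1.08 and 1.13 in R50 by its brightest probe. The treated arrays were highest, by 0.64 over WT (SE 0.07, adjusted p = 0.000958), and R50 was below them by 0.73 (-0.73, adjusted p = 0.000367). With NU6102, 3 of 6 PMS2 probes were called higher and none lower, with values from 0.01 to 0.64. The array annotation lists 2 or 3 non-coding RefSeq transcripts for each of these probes. Which genes these transcripts belong to was not checked, and any signal from PMS2 pseudogenes was not separated. The brightest probe shared no run of 20 bases with a probe of another gene. Another probe, at chr7:6045608-6048632 (hg19, minus strand), shared such runs with a probe named for a PMS2 pseudogene transcript. Capitals mark the 55 bases lying in these runs.
PMS2: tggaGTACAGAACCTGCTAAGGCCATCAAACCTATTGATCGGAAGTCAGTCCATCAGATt

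Of the 6 end joining genes tested, 3 were called higher (XRCC4, NHEJ1 and XRCC5) and none lower in R50 against CDK2 KO by the brightest probe. The shares of protein-coding genes there were 17.4% and 24.9%. In CDK2 KO against WT, 1 was higher and 3 were lower, beside 20.1% and 17%. XRCC4, the scaffold of the ligase, measured 0.40 and 0.33 in WT, 0.29 and 0.33 with NU6102, -0.33 and -0.32 in CDK2 KO, and 0.55 and 0.58 in R50. CDK2 KO stood below all others and R50 above, while WT and WT+NU6102 lay side by side between them. XRCC4 was lower in CDK2 KO than in WT by -0.69 (SE 0.05, adjusted p = 0.000506) and higher in R50 than in CDK2 KO by 0.89 (1.85-fold, adjusted p = 0.000202). It was the 1 gene called higher in R50 than in WT, by 0.20 (adjusted p = 0.0341). That call was lost in 8 of 8 fits without 1 array, with values from 0.17 to 0.24.

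NHEJ1, which aligns the ends with XRCC4, read -1.61 and -1.66 in WT, -1.55 and -1.43 with NU6102, -1.93 and -1.95 in CDK2 KO, and -1.73 and -1.74 in R50. CDK2 KO was lowest, by -0.30 against WT (SE 0.05, adjusted p = 0.0116), lost in 3 of 8 fits without 1 array (-0.33 to -0.28). R50 was 0.21 above CDK2 KO (adjusted p = 0.0357), lost in 6 of 8 (0.20 to 0.22). The Ku subunits differed: XRCC5 rose by 0.44 with NU6102 (SE 0.05, adjusted p = 0.00131) and was -0.28 in CDK2 KO (adjusted p = 0.0102; lost in 2 of 8 fits, -0.32 to -0.25), its call in R50 against CDK2 KO (0.19) being lost in 8 of 8 (0.16 to 0.23), while XRCC6 fell by 0.18 with NU6102 (adjusted p = 0.0374; lost in 7 of 8 fits, -0.23 to -0.14). PRKDC, the DNA-PK catalytic subunit, was 0.28 higher in CDK2 KO (adjusted p = 0.0207), a call lost in 4 of 8 fits (0.25 to 0.31). In R50 against CDK2 KO its brightest probe gave -0.19 and did not pass the test. The second PRKDC probe was called lower there (-0.38). DCLRE1C, the hairpin-opening nuclease Artemis, was called in R50 against WT+NU6102 alone (-0.31, adjusted p = 0.0175; lost in 3 of 8 fits, -0.38 to -0.23).

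The comparisons made within a slide share no arrays. Over the 45 genes their log2 differences correlated with r = 0.08 (Spearman rho = 0.13), and over the 14216 protein-coding genes with r = -0.19. These are descriptions across genes, which are not independent. Of 15 genes higher with NU6102, 5 were called lower in R50 than in CDK2 KO, which is 33.33% of the first list and 27.78% of the 18 genes of the second. Among protein-coding genes the same shares were 34.5% and 42%, so the overlap was no larger in the repair genes. The 5 were EXO1, RBBP8, RAD51C, RAD52 and RAD54B. SLX4 and XRCC5 were called higher in both, FANCA and FANCL lower in both, and no gene was lower with NU6102 and higher in R50. FANCA was lower with NU6102 by its brightest probe alone, and its 2 other probes were called higher (0.46 and 0.36). In R50 against CDK2 KO, the calls of XRCC5, SLX4 and RAD52 were lost in 8, 4 and 4 of 8 fits without 1 array.

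**Figure D5:**
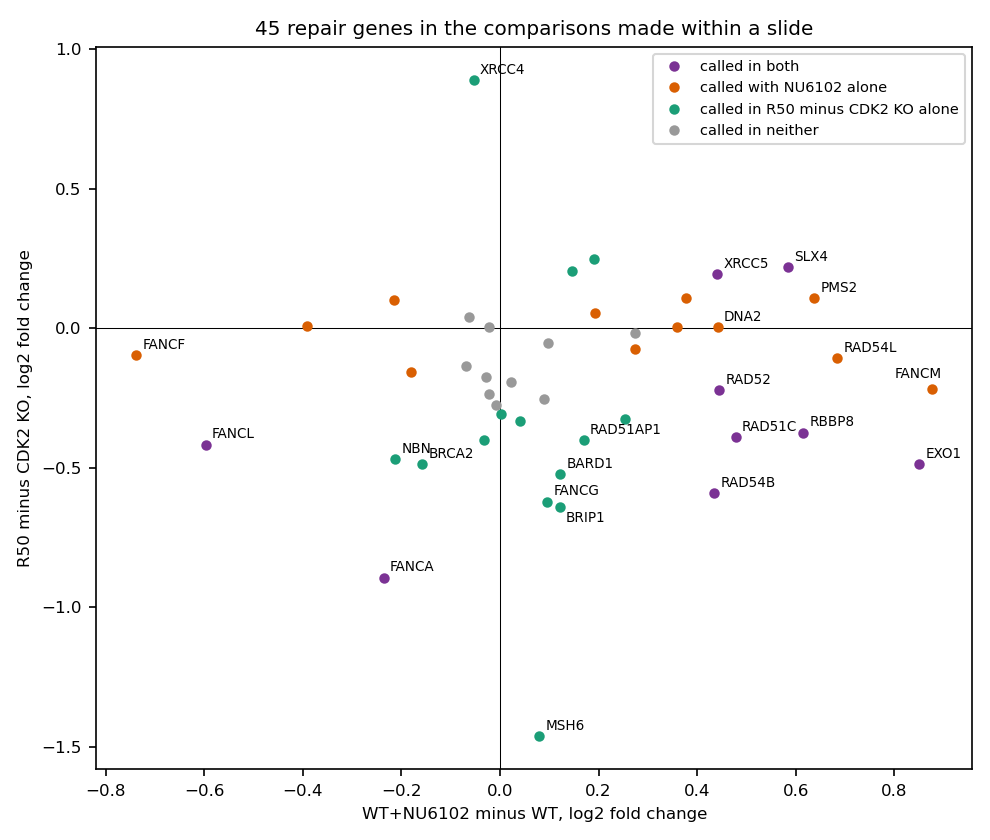
Log2 fold change with NU6102 (horizontal axis) against that of R50 minus CDK2 KO (vertical axis) for 45 repair genes, coloured by where each was called; genes beyond 0.4 on either axis are named. EXO1, RBBP8, RAD51C, RAD52 and RAD54B lie right of 0 and below it, and MSH6 and XRCC4, the extremes of the vertical axis, lie near 0 on the horizontal one.

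Other gene lists were counted in the same comparisons. Of protein-coding genes, 30.3% were higher and 24.2% lower with NU6102, and 20.1% and 17% in CDK2 KO against WT. In R50 the shares higher and lower were 12.6% and 16.1% against WT and 17.4% and 24.9% against CDK2 KO. Against WT+NU6102 they were 26.4% and 35.2%. Of 59 other genes of these pathways 56 were tested. NU6102 raised 27 and lowered 11 of them (median 0.17), CDK2 KO had 7 higher and 10 lower than WT (-0.02), R50 had 3 higher and 13 lower than WT (-0.12), 10 higher and 18 lower than CDK2 KO (-0.09), and 10 higher and 33 lower than WT+NU6102 (-0.25). Of 20 genes of S phase and replication, 15 were higher and 3 lower with NU6102 (median 0.46), 10 higher and 1 lower in CDK2 KO (0.20), 0 higher and 13 lower in R50 against WT (-0.25), and 0 higher and 18 lower in R50 against CDK2 KO (-0.41). Of 15 genes of G2 and mitosis, 4 were higher and 1 lower with NU6102 (0.02), 0 higher and 9 lower in CDK2 KO (-0.21), 0 higher and 5 lower in R50 against WT (-0.17), and 1 higher and 0 lower in R50 against CDK2 KO (0.06). In R50 against WT+NU6102, 0 of the 20 genes of S phase and replication were higher and 17 lower (-0.71). Of the 15 genes of G2 and mitosis, 0 were higher and 6 lower there (-0.13). The part of cell cycle distribution in the results above was not tested. In bulk RNA, fewer cells in a phase and less RNA per cell cannot be told apart.

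Promoters of 39 of the 46 genes were found in the RefSeq table (GRCh38.p14), each from 250 bases before to 50 after the first listed start. The E2F motif, searched on both strands as TTTCCCGC, TTTCGCGC, TTTGCCGC or TTTGGCGC, was present in 10 of the 39 (25.6%) and in 4.44% of 15843 protein-coding promoters. The CHR motif of late cell cycle genes (TTTGAA or TTCGAA) was present in 3 of 39 (7.69%) against 13.5%, and CCAAT in 18 (46.2%) against 36.4%. A match is a description of letters and not a bound site. The matches are shown because E2F factors drive genes of the G1 to S transition and EXO1, MSH6, FANCA and PMS2, described above, are among the 10. Each line gives 30 bases in the direction of the gene, with the motif or its reverse complement in capitals. The EXO1 window is at chr1:241848197-241848226 on the plus strand, with its match from 5 bases after the start, and the MSH6 window at chr2:47783137-47783166, plus strand, with its match from 4 bases after. FANCA lies at chr16:89816801-89816830, minus strand, with its match from -172 relative to the start. PMS2 lies at chr7:6009131-6009160, minus strand, at -43. MSH3 at chr5:80654534-80654563, plus strand, holds overlapping matches from -107, and FANCC has 2, at chr9:95317863-95317892 and chr9:95317737-95317766, minus strand, from -172 and -46.
EXO1: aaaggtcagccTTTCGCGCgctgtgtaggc
MSH6: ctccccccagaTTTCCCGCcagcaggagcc
FANCA: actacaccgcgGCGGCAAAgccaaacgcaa
PMS2: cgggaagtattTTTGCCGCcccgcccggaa
MSH3: gcgcggtcaagTTTGGCGCGAAAttgtggc
FANCC, first: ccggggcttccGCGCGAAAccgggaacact
FANCC, second: ttcgtcggaatTTTCCCGCgacgccgcggg
The others with a match were XRCC2, FANCD2, GEN1 and XRCC6. Among the 10, by the brightest probe, EXO1, MSH3 and PMS2 were called higher with NU6102 and FANCA and XRCC6 lower. XRCC2, FANCC, FANCD2, GEN1 and MSH6 did not pass the test. The 2 other FANCA probes were called higher with NU6102 (0.46 and 0.36). The calls of XRCC6 and MSH3 were lost in 7 and 2 of 8 fits without 1 array. RBBP8, RAD54L and FANCM, which rose with NU6102 as well, had no match in their windows.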

How the data were processed

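Gene expression was measured on 8 Agilent arrays in 1 colour, 2 for each of WT, WT+NU6102, CDK2 KO and R50. The authors scanned the Cy3 signal and deposited intensity values of Agilent Feature Extraction 11.5.1.1, in which the processed signal had already been corrected for background. The authors analysed these in GeneSpring with an ANOVA and a Benjamini-Hochberg adjustment at 0.001. The coordinates of probes are those of the array annotation (hg19).

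The deposited intensity was turned here into log2, and the 75th percentile of its array was subtracted. The authors also deposited a table of log2 values of the same arrays, used here as an alternative; set against the scanner values, that table was scaled per array and centred on each probe's median, and the percentile of its scaling is not given in the sources used here. Control spots and outlier spots were left out, and spots of a probe were averaged. A probe was tested if at least 50% of its usable spots exceeded background clearly, by the scanner's flag, in each of the 2 arrays of some group. The 4 groups were fitted together in limma 3.58.1 (R 4.3.3, data.table version 1.17.8), with Benjamini-Hochberg adjustment over 28677 probes. The fitting step was tested on simulated data in which all probes had the same spread and no slide effect was added. That simulation does not measure error rates in these data. Promoters and figures used Python 3.11.15 with numpy 2.4.6, pandas 2.3.3 and matplotlib 3.10.9. Precision is limited by the 2 arrays of a group. Full values are given for genes called with 2-fold or more and for the 4 largest rises and 4 largest falls called in each comparison, and all others are named once or more with their role. The members, lists and tests were chosen with earlier results of these data known. Replicate numbers did not pair the arrays, since deviations from group means of same-numbered arrays correlated between -0.02805 and 0.04516. Alternatives covered background correction, scaling, filter, prior, choice of probe, a replicate block, a shared slide, the methods' t-test and ANOVA, and leaving out each array.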

Additional observations from a re-analysis of the deposited data

How the results depend on the processing

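With the threshold at 2-fold, the genes higher and lower numbered 0 and 0 with NU6102 against WT, 1 and 0 in CDK2 KO against WT, 0 and 0 in R50 against WT, 0 and 1 in R50 against CDK2 KO, and 0 and 1 in R50 against WT+NU6102. With no filter on dim probes the counts lower with NU6102 came to 3, higher and lower in CDK2 KO to 4 and 4, higher and lower in R50 against WT to 0 and 5, higher in R50 against CDK2 KO to 1, higher in R50 against WT+NU6102 to 3, and by the F-test to 1. The methods' t-test, after Benjamini-Hochberg adjustment, gave 3 lower with NU6102, 2 and 2 in CDK2 KO, 0 and 0 in R50 against WT, 3 and 3 in R50 against CDK2 KO, and 1 and 14 in R50 against WT+NU6102, and the methods' ANOVA gave 6 genes. A fit of only the arrays on a shared slide gave 3 lower with NU6102 and 1 higher in R50 against CDK2 KO. The replicate block, for numbers that did not pair the arrays, gave 0 higher in R50 against WT, 3 higher in R50 against CDK2 KO and 3 genes by the F-test, and kept 208 of 225 values on their side of the threshold. Normexp background correction gave 3 higher in R50 against CDK2 KO and 22 by the F-test. Quantile scaling gave 9 higher in R50 against WT+NU6102, a trended prior 23 by the F-test, and a filter for probes well above background on all arrays 20. For these settings other than 2-fold, the shares of protein-coding genes are not given here. Leaving out each array in turn gave 12 to 16 higher and 3 to 5 lower with NU6102, 4 to 13 and 4 to 9 in CDK2 KO, 0 to 0 and 5 to 11 in R50 against WT, 1 to 3 and 14 to 18 in R50 against CDK2 KO, 3 to 5 and 21 to 27 in R50 against WT+NU6102, and 1 to 3 by the F-test. Each of these fits left 1 array in a group. In every one, a smaller share of protein-coding genes was called than with all arrays fitted together. This held in both directions of each comparison and in the F-test. A lower count of repair genes in these fits therefore cannot be read as a change in the repair genes alone. Directions turned in few cases. The mean of all probes of a gene gave 0.33 with NU6102 and -0.42 in R50 against WT+NU6102 for XRCC3, 0.053 in R50 against WT+NU6102 for ATM, 0.19 with NU6102 and -0.55 in R50 against WT+NU6102 for FANCA, and -0.21 in CDK2 KO against WT and 0.024 in R50 against CDK2 KO for FANCC. The RefSeq probe of XRCC3, an alternative chosen after seeing the data, gave 0.73 with NU6102 and -0.92 in R50 against WT+NU6102. MRE11A came to 0.52 with NU6102 and -0.632 in R50 against WT+NU6102 without WT+NU6102 replicate 1, and to -0.539 and 0.427 without WT+NU6102 replicate 2. FANCE gave 0.25 in R50 against WT+NU6102 after quantile scaling. The cause was not tested. With 2 arrays a group, small changes cannot be resolved.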
